A study of Mus musculus with 12 samples.

Results

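Interferon response genes are the genes that cells switch on when type I or type II interferon binds its receptors. They were taken here by symbol from the genes that the authors listed for splenic CD4 and CD8a cells. The rule reads names (Ifi, Ifit, Isg, Irf, Oas, Gbp, Slfn, Gvin and a few single genes) and leaves out Ifi208. It reads no measured value, but it was set with earlier results of these data known. The rule found 43 of the 3684 listed genes. Of these, 39 were among the 2999 genes listed for CD4 cells, 30 among the 2851 listed for CD8a cells, and 26 were listed for both. By role those described here comprise regulatory factors (Irf9, Irf7), antiviral effectors (Ifit1, Ifit3, Oas1a, Oas3, Oasl2, Mx1, Isg15, Isg20, Rsad2, Zbp1, Samhd1, Xaf1, Rtp4, Bst2, Trim30a), GTPases (Gbp3, Gbp7, Igtp, Irgm1, Iigp1, Ifi47, Gvin3, Gvin-ps6, Gvin-ps7), the IFI200 genes Ifi203, Ifi206, Ifi213 and Ifi214, the Schlafen genes Slfn1, Slfn2, Slfn8 and Slfn10-ps, the pair Parp9 and Parp14, and Ifi27, Ifi27l2a, Ifi30, Ifi35, Shisa5 and Ifitm10.

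The study compared C57Bl6/J wild-type mice (WT) with S100a9-/- mice on the same background (KO), each with or without repeated social defeat, a paradigm in which a mouse is repeatedly defeated by an aggressive conspecific. There were 3 mice in each of 4 groups, referred to as WT control, KO control, WT stress and KO stress. Stressed mice went through 10 days of defeat and 1 day of behavioural tests, and the spleen was taken on day 12. The sources used here give neither sex nor age of the mice. Single-cell RNA sequencing of splenocytes gave 1 average per gene, mouse and cell type, on a linear scale on which the listed genes summed to between 7367 and 8270 per mouse. An average over cells cannot tell a few cells with much RNA of a gene from many cells with little.

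As background, type I interferon signals through the kinases Jak1 and Tyk2 to a transcription factor complex that includes Irf9 and binds the interferon-stimulated response element in the promoters of its targets. Targets of interferon gamma carry another element, the gamma-activated site. Irf7 amplifies the response. The products include antiviral effectors (Isg15, the Ifit and Oas proteins, Rsad2, Bst2), large and small GTPases that act against microbes inside cells (Gbp, Igtp, Irgm1, Gvin), DNA-binding proteins of the IFI200 family, and Schlafen proteins, some of which hold T cells in quiescence. Naive T cells are known to express many of these genes at a low tonic level without infection.

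The RefSeq promoter table (GRCm38.p6), with windows from 250 bases before to 50 bases after each start, held a window for 30 of the 43 genes. The core of the response element, GAAA then any 2 bases then GAAA on either strand, was found in a window of 18 of the 30 (60%), against 3.99% of all 27025 genes with a window. The gamma-activated site, TTC then any 3 bases then GAA, was found in 8 of the 30 (26.7%) against 9.55%. Both motifs were searched on both strands; adjoining matches of the first can share a repeat. The promoter stretches of 9 genes are shown because genes with the same core rose, fell or were high in 1 mouse in the comparisons that follow. Capitals mark the matched repeats, which read TTTC where the match lies on the other strand.
Bst2 (chr8:71537562-71537627, minus strand): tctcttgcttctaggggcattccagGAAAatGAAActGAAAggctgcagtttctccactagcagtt
Isg15 (chr4:156200850-156200921, minus strand): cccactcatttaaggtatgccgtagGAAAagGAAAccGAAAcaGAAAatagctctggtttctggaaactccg
Oas1a (chr5:120907526-120907570, minus strand): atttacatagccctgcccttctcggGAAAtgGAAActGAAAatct
Gbp7 (chr3:142530258-142530317, plus strand): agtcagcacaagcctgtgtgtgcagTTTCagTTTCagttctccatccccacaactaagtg
Slfn8 (chr11:83020824-83020883, minus strand): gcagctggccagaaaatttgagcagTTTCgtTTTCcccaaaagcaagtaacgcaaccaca
Ifi203 (chr1:173942493-173942552, minus strand): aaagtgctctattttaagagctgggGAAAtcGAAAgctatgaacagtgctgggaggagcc
Ifi214 (chr1:173536002-173536061, minus strand): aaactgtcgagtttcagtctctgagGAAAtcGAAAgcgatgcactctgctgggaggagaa
Ifit1 (chr19:34640760-34640838, plus strand): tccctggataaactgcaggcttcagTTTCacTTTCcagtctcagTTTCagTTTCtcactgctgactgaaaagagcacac
Rsad2 (chr12:26456538-26456597, minus strand): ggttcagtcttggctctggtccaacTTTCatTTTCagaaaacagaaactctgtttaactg

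Bst2, Isg15 and Oas1a were higher after stress in CD4 cells of WT mice, Gbp7, Slfn8 and Ifi203 were lower after stress in CD4 cells of KO mice, and Ifi214 was lower in CD8a cells of both genotypes. Gbp7 and Slfn8 were not listed for stress in WT CD4 cells, and in a fit of all 4 groups they were lower there too. Ifit1 and Rsad2 were high in 1 KO control mouse relative to the other 2. All 4 IFI200 genes with a match had the same tc between their repeats. Among members with a window, a match was present in 3 of the 6 higher after stress in WT CD4 cells and in 4 of the 5 lower after stress in KO CD4 cells. A match is a description of these letters and does not show that a factor binds.

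The identity of the cells and of the libraries was checked first. The T cell list summed to between 36.9 and 47.0 in CD4 cells, and Cd8a plus Cd8b1 to between 0.403 and 1.15 there against 11.4 to 16.9 in CD8a cells. Cd4 was at 1.66 to 3.01 in CD4 cells and is not among the genes listed for CD8a cells. S100a9, a neutrophil gene at a trace level in T cells, was read at 0.0418 to 0.0493 in CD4 cells of KO control mice and at 0.00449 to 0.0167 in those of WT control mice. In stressed mice it was at 0.0595 to 0.111 in WT and 0.0228 to 0.0294 in KO mice, so the order of the genotypes differed between the control and the stressed mice. The labels do not say which part of S100a9 is deleted, so 3' reads of it do not check the genotype, and WT and KO are used as the labels give them. One mouse stood apart for the interferon response genes: KO control mouse 1 was the highest of all 12 mice for 33 of the 39 genes in CD4 cells, against 17.2% of all listed genes, and for 24 of the 30 in CD8a cells, against 11.4%. Of these genes, 29 of the 39 and 17 of the 30 were listed for KO against WT without stress. That listing, made on the same mice, could favour genes high in a KO control mouse. The shares of all listed genes are therefore not a like background. The main fits that involve the KO control group are given with and without KO control mouse 1. Counts by group means and the fit of all 4 groups include it.

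The summed level of the interferon response genes is weighted to the genes with the highest values, Shisa5, Ifi27l2a and Gvin-ps7 first. Low genes such as Rsad2 and Mx1 add little to it. In CD4 cells the 39 genes summed to 61.0, 60.3 and 61.5 in the 3 WT control mice and to 99.2, 74.8 and 66.9 in the 3 KO control mice. After stress they summed to 53.8, 51.3 and 52.6 in WT and to 66.0, 56.7 and 59.6 in KO mice. WT control mice were close together, WT stress mice were all below them, and the 3 KO control mice were all above them. In CD8a cells the 30 genes summed to 50.5, 51.9 and 51.6 in WT control, 72.9, 57.7 and 56.2 in KO control, 38.0, 41.0 and 39.6 in WT stress and 47.6, 42.4 and 42.8 in KO stress mice. Here both stressed groups lay below both control groups. Without the 3 Gvin genes, the WT groups of CD4 cells no longer separated, at 46.0 ± 0.855 in control and 45.5 ± 1.596 in stressed mice (SD, n = 3), so these 3 genes carried the fall of that sum. In CD8a cells the WT groups stayed apart without them, at 34.5 to 37.0 in control and 31.7 to 33.8 in stressed mice.

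**Figure D1:**
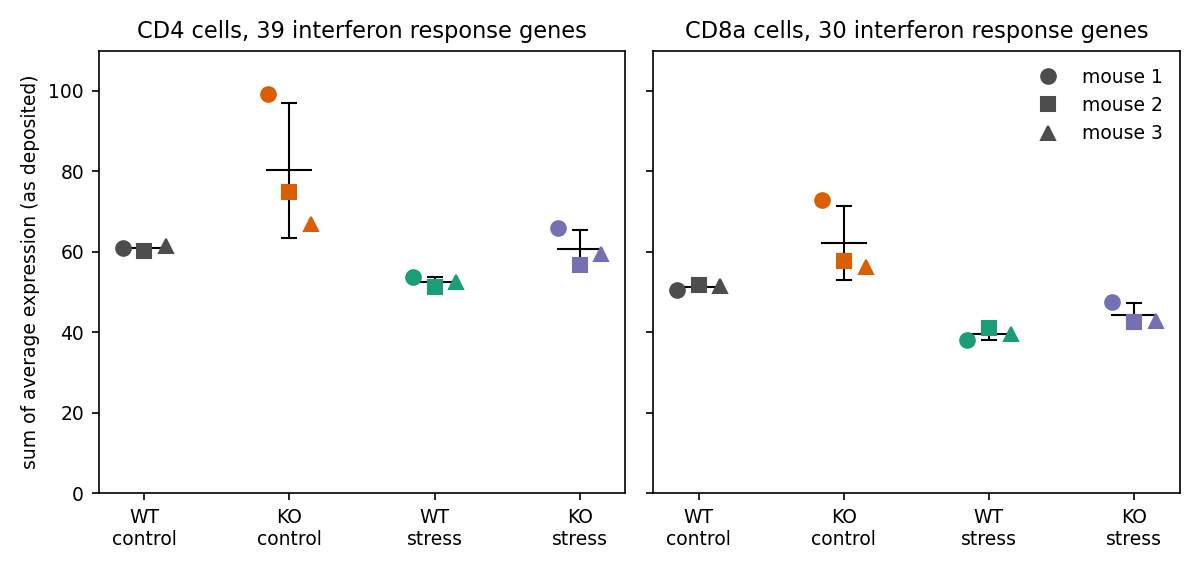
Summed average expression (as deposited) of the interferon response genes in each mouse, for CD4 cells (39 genes) and CD8a cells (30 genes); marker shapes are mouse numbers, and bars are the mean and SD of 3 mice. KO control mouse 1, at 99.2 in CD4 and 72.9 in CD8a cells, is the highest point in both panels.

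In WT mice, stress moved the genes of this set in 2 directions. In CD4 cells, 16 of the 39 genes were among those the authors listed for this comparison. Of the 16, 7 were higher after stress, against 31% of all listed genes, and 3 were lower, against 28.9% (either direction, 59.9%). The median log2 change was 0.25 over the 16 genes and 0.15 over all 2413 genes tested. The authors chose these genes on the same mice, so the counts describe their list and are close to its background.

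Bst2, tetherin, which holds budding virus particles at the cell surface, was at 0.614, 0.825 and 0.873 in WT control and 1.5, 1.14 and 1.35 in WT stress mice. Every stressed mouse was above every control mouse, and the log2 difference was 0.72 ± 0.13, adjusted p = 3.58e-04 (limma). Ifi27l2a, a small interferon-induced membrane protein, was at 4.81, 5.76 and 5.9 in control and 10.6, 8.92 and 7.76 in stressed mice, again without overlap (0.71 ± 0.11, adjusted p = 1.02e-04). Ifi35, a partner of Nmi, went from 0.433, 0.384 and 0.352 to 0.531, 0.562 and 0.55 (0.41 ± 0.11, adjusted p = 0.00601). These 3 rises passed with each of the 6 mice left out in turn.

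The other 4 rises were smaller or at low levels, and their groups also did not overlap. Irf7, the amplifying transcription factor, was at 0.222, 0.239 and 0.259 in control and 0.361, 0.384 and 0.269 in stressed mice (0.36 ± 0.13, adjusted p = 0.0309). Isg15, a ubiquitin-like modifier, was at 0.385, 0.349 and 0.233 in control and 0.511, 0.397 and 0.44 in stressed mice (0.39 ± 0.15, adjusted p = 0.0363). The gap between the closest control and stressed mouse was small for both. Ifi47, an immunity-related GTPase, was at 1.15, 0.991 and 1.3 in control and 1.49, 1.34 and 1.38 in stressed mice (0.27 ± 0.10, adjusted p = 0.036). Oas1a, which makes the second messenger that activates RNase L, was at 0.00765, 0.0161 and 0.0117 in control and 0.0885, 0.0323 and 0.0279 in stressed mice (0.40 ± 0.15, adjusted p = 0.0385). Each of these 4 calls was lost on leaving out WT control mouse 2 or WT stress mouse 1, with 3 of the 7 rises left in either case and 4 without WT control mouse 1.

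Among the 16 genes listed for this comparison, the 3 that fell in WT CD4 cells were the 3 Gvin genes, which encode or derive from very large interferon-inducible GTPases. Gvin3 was at 3.18, 2.87 and 2.98 in control and 1.08, 1.36 and 1.49 in stressed mice (-1.15 ± 0.10, adjusted p = 5.41e-06). Gvin-ps6 went from 3.91, 3.65 and 3.34 to 1.47, 1.6 and 1.72 (-1.14 ± 0.09, adjusted p = 2.17e-06), and Gvin-ps7 from 8.53, 8.12 and 8.19 to 3.87, 4.07 and 4.42 (-0.99 ± 0.07, adjusted p = 1.47e-06). The lowest control mouse was far above the highest stressed mouse for each. The Gvin genes are closely related copies, so how reads were divided among them is uncertain, and the 3 are not independent. Rtp4, Ifi27, Zbp1, Ifi30, Slfn2 and Igtp did not pass the test, with log2 differences between -0.07 and 0.27.

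In CD8a cells of WT mice, 14 of the 30 genes were listed, of which 3 were higher, against 26.7% of all listed genes, and 6 were lower, against 41.5% (either direction, 68.2%). The median log2 change was -0.0042 over the 14 genes and 0.09 over all 2108 tested. Ifi27l2a rose from 2.39, 2.07 and 2.94 to 4.55, 4.84 and 3.21 (0.74 ± 0.14, adjusted p = 4.29e-04) and Bst2 from 0.78, 1.04 and 0.772 to 1.22, 1.34 and 1.34 (0.55 ± 0.11, adjusted p = 5.89e-04). Both were also among the rises in CD4 cells. Ifi27, the neighbour of Ifi27l2a on chromosome 12, was at 0.944, 1.01 and 1.03 in control and 1.26, 1.16 and 1.16 in stressed mice (0.24 ± 0.09, adjusted p = 0.0279), a call that ended on leaving out WT control mouse 1 or 2 or WT stress mouse 1 or 3 and with the mouse number as a block (adjusted p = 0.0692). Isg15, at 0.218, 0.325 and 0.284 in control and 0.564, 0.398 and 0.238 in stressed mice, overlapped between the groups and did not pass (0.37 ± 0.20, adjusted p = 0.112).

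The falls in WT CD8a cells were again led by the Gvin genes: Gvin3 was at 3.49, 3.43 and 3.00 in control and 1.11, 1.48 and 1.57 in stressed mice (-1.21 ± 0.11, adjusted p = 3.00e-06), and the log2 changes of Gvin-ps6 and Gvin-ps7 were -1.17 ± 0.11 and -1.05 ± 0.08. Slfn8, a Schlafen protein, was at 1.04, 1.23 and 1.11 in control and 0.572, 0.552 and 0.528 in stressed mice (-0.91 ± 0.10, adjusted p = 5.54e-06). Its pseudogene relative Slfn10-ps, which lies close to it on chromosome 11, was at 0.256, 0.271 and 0.249 in control and 0.122, 0.106 and 0.0915 in stressed mice (-0.80 ± 0.12, adjusted p = 4.27e-05). Ifi214, an IFI200 gene, was at 1.23, 1.26 and 1.26 in control and 0.735, 0.747 and 0.748 in stressed mice (-0.68 ± 0.09, adjusted p = 1.59e-05). No mouse overlapped between the groups for any of the 6.

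**Figure D2:**
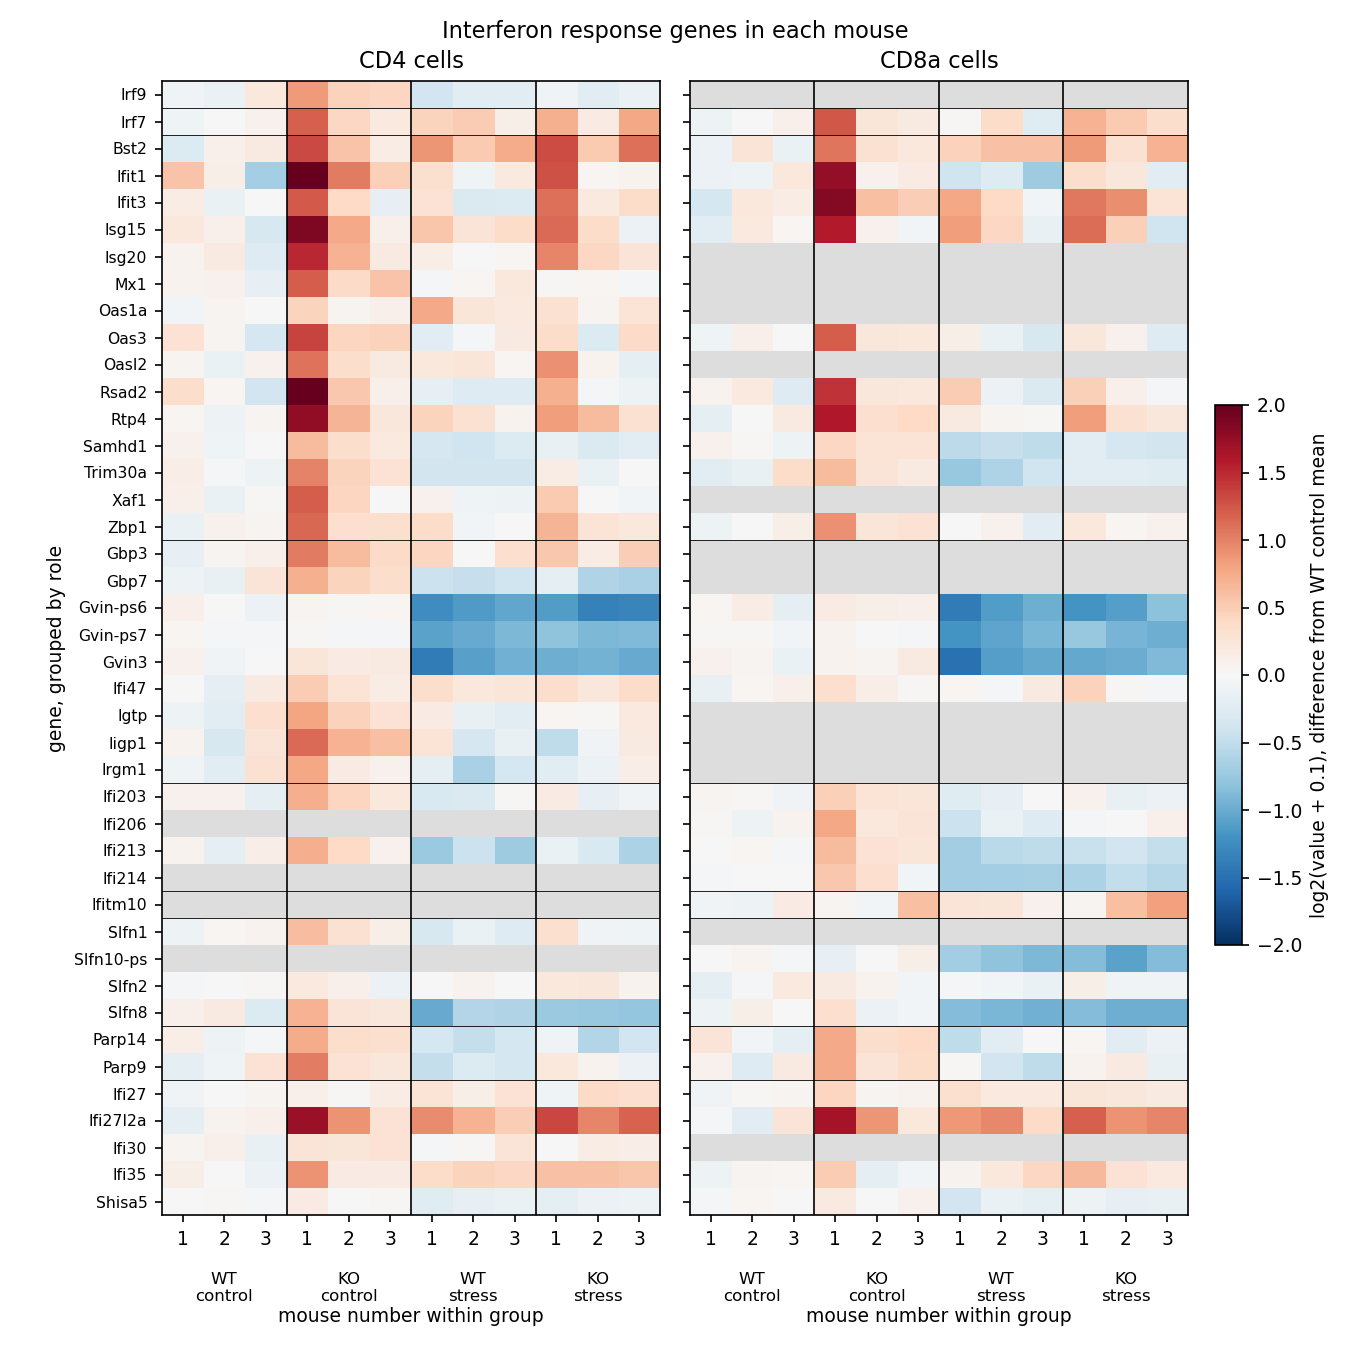
Difference of log2(value + 0.1) from the WT control mean for the interferon response genes described here (rows, grouped by role) in each of 12 mice (columns), in CD4 and CD8a cells; grey marks genes not listed for that cell type. KO control mouse 1 is red across most antiviral genes, and the Gvin rows are blue in all stressed mice.

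In KO mice, stress lowered genes of the set and raised none at the threshold. In CD4 cells, 9 of 15 listed genes were lower, against 20% of all listed genes, and 0 were higher, against 19.5% (either direction, 39.5%; no further gene had an unadjusted p under 0.05 by limma). The median log2 change was -0.48 over the 15 genes and 0.13 over all 1898 tested. In CD8a cells, 10 of 15 were lower, against 22.1%, and 0 were higher, against 17.9% (either direction, 40%; again no further gene at an unadjusted p under 0.05). The medians were -0.63 over the 15 genes and 0.11 over all 2023. These lists too were chosen by the authors on the same mice. The 3 Gvin genes, among the falls in both cell types, are not independent. The absence of rises depended on KO control mouse 1, as given below.

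Among antiviral effectors in KO mice, Samhd1, which depletes the nucleotides that viruses need, fell in CD4 cells from 5.16, 4.24 and 3.78 to 2.96, 2.66 and 2.84 (-0.61 ± 0.10, adjusted p = 1.17e-04). In CD8a cells it fell from 3.26, 2.96 and 2.93 to 2.07, 1.89 and 1.86 (-0.63 ± 0.08, adjusted p = 8.49e-06). In both cell types each stressed mouse was below each control mouse.

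Of the GTPases, Gvin3 fell in CD4 cells from 3.56, 3.38 and 3.43 to 1.49, 1.52 and 1.44 (-1.17 ± 0.08, adjusted p = 1.51e-07). Gvin-ps6 changed by -1.30 ± 0.09 and Gvin-ps7 by -0.85 ± 0.07. Gbp7, a guanylate-binding protein, went from 1.81, 1.49 and 1.39 to 0.931, 0.669 and 0.646 (-0.98 ± 0.13, adjusted p = 2.03e-05). In CD8a cells the 3 Gvin genes changed by -1.16, -1.07 and -0.91 on the log2 scale. The Gvin changes ranged from -1.30 to -0.85 in KO and from -1.21 to -0.99 in WT mice over both cell types.

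Slfn8 fell in CD4 cells from 1.65, 1.2 and 1.17 to 0.55, 0.539 and 0.535 (-1.15 ± 0.12, adjusted p = 3.88e-06), and its change in CD8a cells was -0.997 ± 0.12. In the IFI200 family, Ifi203 fell in CD4 cells from 5.87, 4.77 and 4.08 to 3.94, 3.12 and 3.34 (-0.48 ± 0.12, adjusted p = 0.00354). Ifi203, Ifi213 and Ifi214 all fell in CD8a cells, with changes of -0.39 ± 0.08, -0.82 ± 0.11 and -0.84 ± 0.13. Ifi214 was at 1.85, 1.6 and 1.2 in control and 0.767, 0.863 and 0.811 in stressed mice, without overlap. Parp14, an ADP-ribosyltransferase that works with Parp9, fell in CD4 cells from 2.03, 1.53 and 1.48 to 1.11, 0.754 and 0.882 (-0.81 ± 0.14, adjusted p = 1.57e-04). Shisa5, a membrane protein linked to cell death, changed least among the genes called, by -0.20 ± 0.07 in CD4 and -0.22 ± 0.06 in CD8a cells. Genes that did not pass had changes from 0.00 for Ifi47 to 0.29 for Bst2 in CD4 cells, and from -0.01 for Ifi47 to 0.29 for Ifitm10 in CD8a cells.

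Leaving out KO control mouse 1 changed the rises and left most falls. Without it, Bst2, Ifi35 and Ifi27l2a were higher after stress in KO CD4 cells, with log2 changes of 0.62 ± 0.18, 0.41 ± 0.12 and 0.57 ± 0.14 (adjusted p = 0.0126, 0.0122 and 0.00261, limma). With it, the changes of the same genes were 0.29 ± 0.24, 0.17 ± 0.17 and 0.19 ± 0.24. Ifi27l2a was at 18.4, 10.3 and 6.68 in KO control and 13.97, 10.9 and 12.5 in KO stress mice, so the first KO control mouse lay above all stressed mice and the other 2 below them. The count of genes lower was 8 without the mouse, with Shisa5 lost. In CD8a cells 10 were lower and 1, Ifi35, was higher without it. The shares of all listed genes called without this mouse are not given here.

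**Figure D3:**
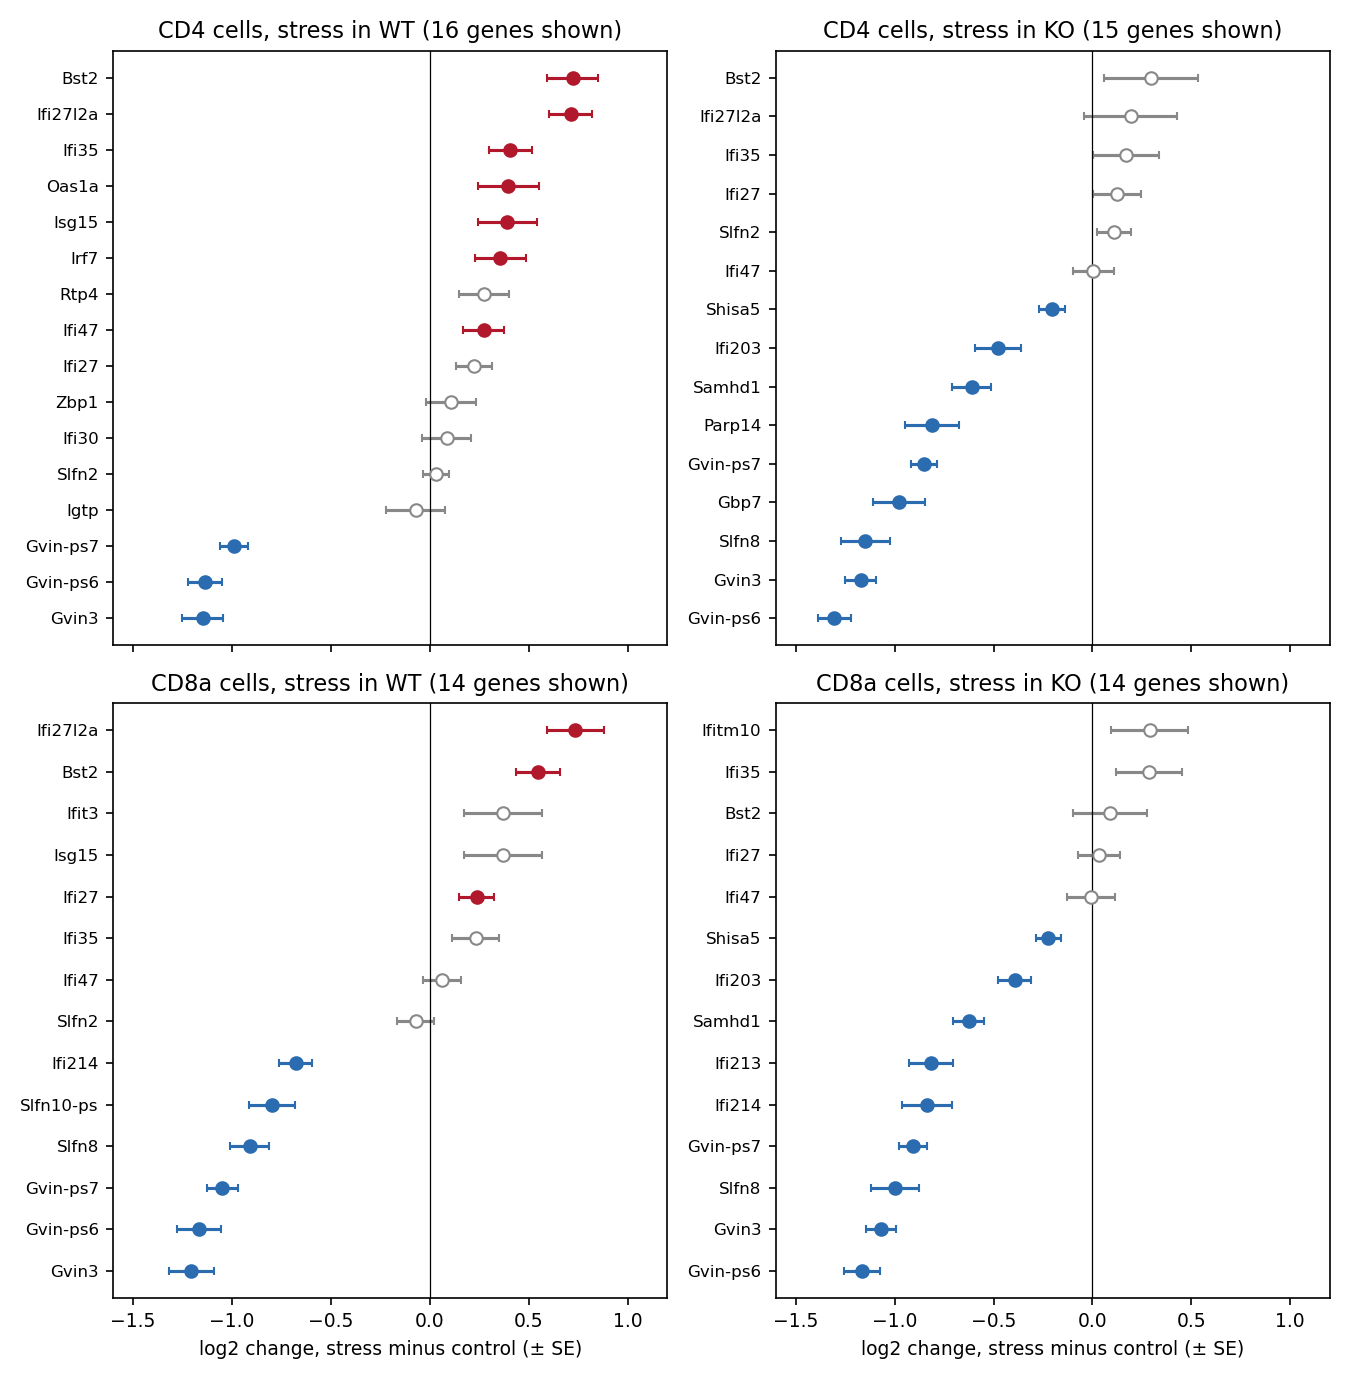
Log2 change (stress minus control, ± SE, limma) of the interferon response genes listed for a comparison and described here, in CD4 and CD8a cells of WT and KO mice; filled red and blue points are higher and lower at an adjusted p under 0.05, open points are not called. The lowest value in each panel belongs to a Gvin gene, and red points occur in the WT panels alone.

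Many of the interferon response genes were not listed for a given comparison but were listed for another, so their values are known. A fit of all 4 groups at once over every listed gene covered them. In it, 8 members not listed for CD4 stress in WT were lower, as were 7 for CD4 stress in KO, 5 for CD8a stress in WT and 7 for CD8a stress in KO, and 0 were higher. The share of all listed genes called in this fit is not given here, so these counts are not set against a background. The same fit ended some calls: the rises of Irf7 (adjusted p = 0.186) and Isg15 (adjusted p = 0.371) after stress in WT CD4 cells did not pass in it, while no call of the other 3 stress comparisons was lost. In KO CD4 cells, Irf9 was at 1.28, 0.951 and 0.934 in control and 0.634, 0.554 and 0.597 in stressed mice (-0.72 ± 0.13, adjusted p = 1.84e-04). Irf9, Iigp1, Mx1 and Trim30a were listed for CD4 cells only for KO against WT without stress. That listing used the KO control mice, so falls of such members from KO control to KO stress are not independent of it. Trim30a, a regulator of innate signalling, was lower in this fit in all 4 comparisons, with changes between -0.59 and -0.37. Some genes named above for their falls in KO CD4 cells were lower in WT CD4 cells too, where they were not listed. They were Slfn8 (-0.73 ± 0.15, adjusted p = 5.75e-04, limma), Gbp7 (-0.43 ± 0.14, adjusted p = 0.0154), Parp14 (-0.39 ± 0.13), Samhd1 (-0.33 ± 0.09) and Shisa5 (-0.18 ± 0.06). In WT CD8a cells the same held for Samhd1, Ifi213 and Shisa5. By group means over all members, 22 of 39 genes in CD4 cells were lower after stress in WT and 32 in KO mice, against 40.4% and 50.2% of all listed genes. In CD8a cells, 19 of 30 were lower in WT and 25 in KO mice, against 48.5% and 47.8%. As 29 of the 39 and 17 of the 30 genes were listed for KO against WT without stress, the listing could favour the falls in KO mice. The shares of all listed genes are not a like background for those falls. The counts by group means include KO control mouse 1.

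Markers of other cells, the ribosomal share and transcript length also moved with stress. In CD4 cells, the natural killer and cytotoxic list (4 of 8 genes listed: Gzma, Nkg7, Ccl5 and Klrd1) summed to 2.76 to 4.54 in WT control, 4.14 to 7.64 in KO control, 9.05 to 28.2 in WT stress and 13.9 to 40.4 in KO stress mice. In CD8a cells, where Klre1, Nkg7, Ccl5 and Klrd1 of that list are listed, the sums were 13.8 to 19.3, 17.5 to 22.4, 25.1 to 31.2 and 25.6 to 47.2 in those 4 groups. The neutrophil list, without overlap in WT mice, summed to 0.0118 to 0.0304 in control and 0.116 to 0.323 in stressed mice in CD4 cells (4 of 8 genes), and to 0.00618 to 0.0474 and 0.0981 to 0.265 in CD8a cells (5 of 8). In KO mice the neutrophil sums were 0.0796 to 0.280 in control and 0.225 to 0.449 in stressed mice in CD4 cells, which overlap. The erythroid list in CD4 cells summed to 0.0891 to 0.141 in WT control and 0.197 to 2.36 in WT stress mice, and to 0.627 to 5.52 and 1.70 to 5.08 in KO mice. Cd4 itself was at 2.58 to 3.01 in WT control, 1.66 to 1.85 in WT stress, 2.59 to 2.72 in KO control and 1.86 to 2.47 in KO stress mice. The part of other cells in the stress results was not tested. The ribosomal protein genes summed to 2225 to 2425 in WT control and 2929 to 3079 in WT stress mice in CD4 cells, and to 1984 to 2056 and 2757 to 2911 in KO mice. In WT CD4 cells the 7 interferon response genes that rose had a longest annotated transcript of 1362 bases at the median (463 to 3240; GENCODE M21). The Gvin genes had no length there. In KO CD4 cells the 6 genes with a length among the 9 that fell had a median of 3969 bases (2010 to 7417), and the 6 not called had 1170. In CD8a cells the medians were 792 for the 3 that rose and 4011 for 3 of the 6 that fell in WT mice, and 3926 for 7 of the 10 that fell in KO mice. The same held over all listed genes: in WT CD4 cells the median was 1286 bases for genes that rose and 5538 for genes that fell, and in KO CD4 cells 1044 and 5987. In CD8a cells it was 1225 and 5515 in WT and 976 and 5603 in KO mice. The interferon response genes and all listed genes thus ran in the same direction with length, and the part of length in their changes was not tested.

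**Figure D4:**
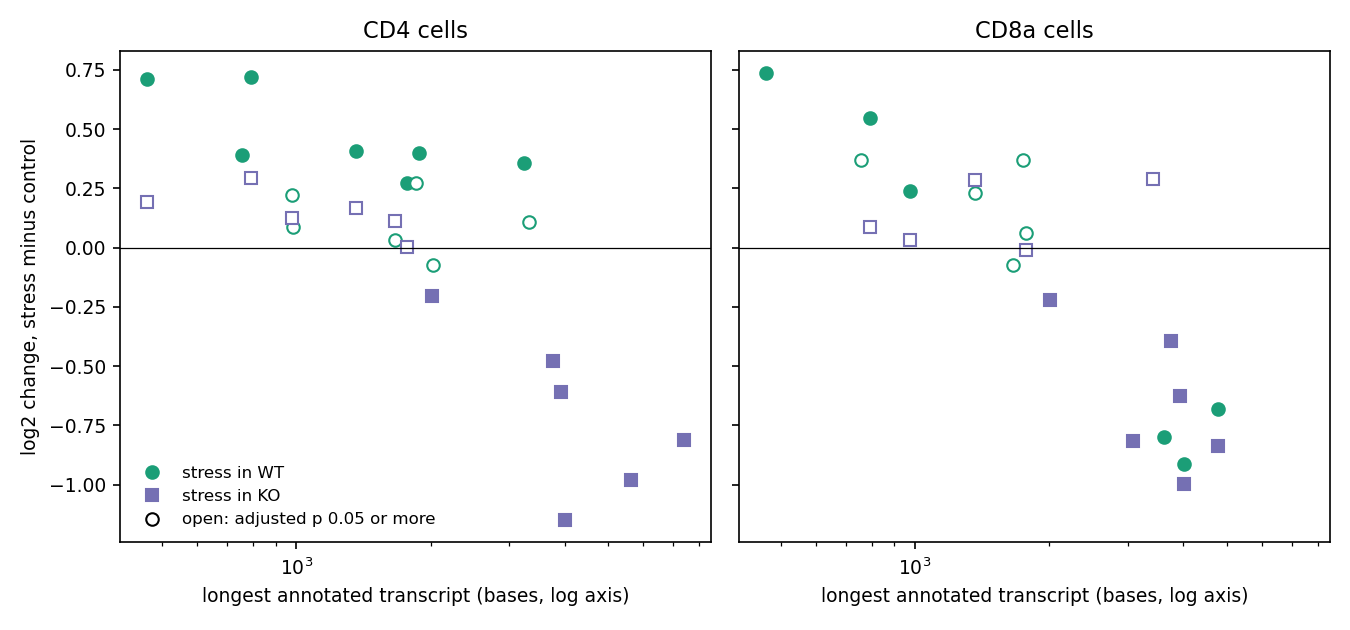
Log2 change after stress (vertical) against the longest annotated transcript of the interferon response genes described here that have a length (horizontal, bases, log axis), for WT (circles) and KO mice (squares) in CD4 and CD8a cells; filled symbols are called at an adjusted p under 0.05. All called falls are of genes of 2010 bases or more, and the called rises run from 463 to 3240 bases.

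The stress effects of the 2 genotypes were compared by an interaction term, the stress effect in KO minus that in WT mice. None of the 39 genes in CD4 cells and none of the 30 in CD8a cells passed, and 0 of all 2999 and 2851 listed genes did (0% and 0%). At an unadjusted p under 0.05 there were 6 of 39 in CD4 cells, against 9.47% of all listed genes, and 1 of 30 in CD8a cells, against 7.16%. The smallest p in CD4 cells belonged to Mx1 (log2 -0.78 ± 0.24, adjusted p = 0.392), Iigp1 (-0.87 ± 0.29) and Gbp7 (-0.55 ± 0.19), with the smallest adjusted p over the CD8a genes at 0.681. The interaction was negative for 35 of 39 genes in CD4 cells, against 58.0% of all listed genes, with medians of -0.33 over the members and -0.05 over all genes. In CD8a cells it was negative for 24 of 30, against 47.2%, with medians of -0.14 and 0.01. The KO control mice enter this term, and 29 of the 39 and 17 of the 30 genes were listed for KO against WT without stress on those mice. The signs of the members are thus in part set by the listing. The shares and medians of all listed genes are not a like background for them. Without KO control mouse 1 it was positive for 13 of 39 and 16 of 30 members, and the members' medians were -0.13 and 0.0026. The calls in 1 genotype and not the other are therefore not shown to differ.

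Without stress, interferon response genes had higher group means in KO than in WT mice, few passed the test, and the calls depended on single mice. In CD4 cells, 29 of the 39 genes were listed for this comparison. All 29 had higher group means in KO mice, as did 38 of all 39 members against 66.0% of all listed genes. Of the 29, 7 passed, against 15.1% of all listed genes, while 0 were lower, against 6.65% (either direction, 21.8%). The median log2 difference was 0.57 over the 29 genes and 0.20 over all 496 tested. The 3 KO control mice were all above the 3 WT control mice for 20 of 39 genes, against 19.6% of all listed genes. The listing used these same mice, and some members, such as Irf9, Iigp1 and Mx1, were listed for CD4 cells through this comparison alone. Only 496 of the 2999 listed genes came from it. The shares of all listed genes are therefore not a like background, and the direction of the members is in part set by the listing. The KO control mice also enter the comparison of stress in KO mice, so the 2 results are not independent.

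Irf9, the DNA-binding part of that complex, was at 0.63, 0.597 and 0.789 in WT control and 1.28, 0.951 and 0.934 in KO control mice (0.58 ± 0.17, adjusted p = 0.0481). Iigp1, an immunity-related GTPase, was at 0.509, 0.364 and 0.599 in WT and 1.18, 0.841 and 0.788 in KO control mice (0.81 ± 0.21, adjusted p = 0.0475). Gbp7 was at 0.986, 0.953 and 1.29 in WT and 1.81, 1.49 and 1.39 in KO control mice (0.50 ± 0.15, adjusted p = 0.0483). In these 3 genes the first KO mouse was the highest and the other 2 were close to each other, all above the WT mice. Gbp3, which like Gbp7 lies on chromosome 3, was at 0.0633, 0.0908 and 0.0963 in WT and 0.278, 0.185 and 0.139 in KO control mice (0.69 ± 0.21, adjusted p = 0.0487). Parp14 was at 1.29, 1.09 and 1.15 in WT and 2.03, 1.53 and 1.48 in KO control mice (0.47 ± 0.14, adjusted p = 0.0483). Ifi203 was at 3.75, 3.75 and 3.07 in WT and 5.87, 4.77 and 4.08 in KO control mice (0.46 ± 0.14, adjusted p = 0.0491), and Samhd1 at 3.49, 3.09 and 3.3 in WT and 5.16, 4.24 and 3.78 in KO control mice (0.40 ± 0.11, adjusted p = 0.0481). None of the 7 overlapped between the groups.

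Several classical antiviral genes had larger differences and did not pass without the block on mouse number, and in them KO control mouse 1 lay far above the other 2. Isg15 was at 0.385, 0.349 and 0.233 in WT and 1.42, 0.605 and 0.345 in KO control mice (0.91 ± 0.40, adjusted p = 0.0936). Ifit1, which binds foreign RNA ends, was at 0.377, 0.25 and 0.101 in WT and 1.31, 0.563 and 0.348 in KO control mice (1.21 ± 0.45, adjusted p = 0.0707). Rsad2, viperin, was at 0.091, 0.0529 and 0.0142 in WT and 0.503, 0.116 and 0.0595 in KO control mice (0.88 ± 0.46, adjusted p = 0.125). In each the third KO mouse lay within the range of the WT mice. With the block these 3 genes passed (adjusted p = 0.0408 for Isg15, 0.0156 for Ifit1 and 0.0447 for Rsad2, limma). The labels do not pair mice of the 2 genotypes by number, so these values rest on a pairing chosen from the data. Irf7 was at 0.222, 0.239 and 0.259 in WT and 0.675, 0.351 and 0.29 in KO control mice (0.60 ± 0.26, adjusted p = 0.086). Over the 22 genes that did not pass without the block, the log2 difference ran from 0.20 for Gvin3 to 1.21 for Ifit1.

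The 7 calls in CD4 cells were not stable. Leaving out any 1 of the 3 WT control mice, KO control mouse 1 or KO control mouse 2 left 0 of them, and leaving out KO control mouse 3 gave 24. Without KO control mouse 1 all 29 genes kept a positive log2 difference, with a median of 0.33, and KO control mice 2 and 3 were above all WT control mice for 20 of 39 genes, against 21.9% of all listed genes. With the mouse number as a block, 16 were higher, the 7 among them along with Isg15, Ifit1, Rsad2, Ifi27l2a, Trim30a, Isg20, Gvin3, Oas3 and Mx1. The labels do not pair WT with KO mice by number. The block was chosen because same-numbered mice deviated together in these same data. In CD8a cells the correlation for mouse 2 was -0.19. The shares of all listed genes called in these fits are not given here, so the counts of 24 and 16 have no background beside them. A pseudocount of 1, removal of the lowest 25% of genes, centring on each mouse's median and rescaling without ribosomal and mitochondrial genes each gave 0. In the fit of all 4 groups, Gbp7 (adjusted p = 0.0543), Ifi203 (adjusted p = 0.0650) and Parp14 (adjusted p = 0.0634) did not pass.

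In CD8a cells, 17 of the 30 genes were listed for KO against WT without stress, and all 17 were higher on average in KO mice, as were 29 of all 30 members against 59.5% of all listed genes. Of the 17, 0 passed in either direction, against 3.96% higher and 4.29% lower of all 303 listed genes (either direction, 8.25%). By limma, 9 of the 17 had an unadjusted p under 0.05. The median log2 difference was 0.51 over the 17 genes and 0.09 over all genes tested, and 0.26 over the 17 without KO control mouse 1. Among the smallest p were those of Ifi203 and Samhd1. Ifi203 was at 3.37, 3.31 and 3.08 in WT and 4.57, 3.95 and 3.88 in KO control mice (0.33 ± 0.08, adjusted p = 0.0522). Samhd1 was at 2.59, 2.45 and 2.24 in WT and 3.26, 2.96 and 2.93 in KO control mice (0.32 ± 0.08, adjusted p = 0.0522). Irf7 was at 0.234, 0.258 and 0.286 in WT and 0.744, 0.322 and 0.307 in KO control mice (0.55 ± 0.28, adjusted p = 0.134), with the first KO mouse far above the other 2. All 3 KO control mice were above all WT control mice for 14 of 30 genes, against 12.8% of all listed genes, and mice 2 and 3 for 14 as well, against 16.2%. The listing used these same mice, and some members, such as Ifit1, Rtp4 and Irf7, were listed for CD8a cells through this comparison alone. The shares of all listed genes are therefore not a like background here either.

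**Figure D5:**
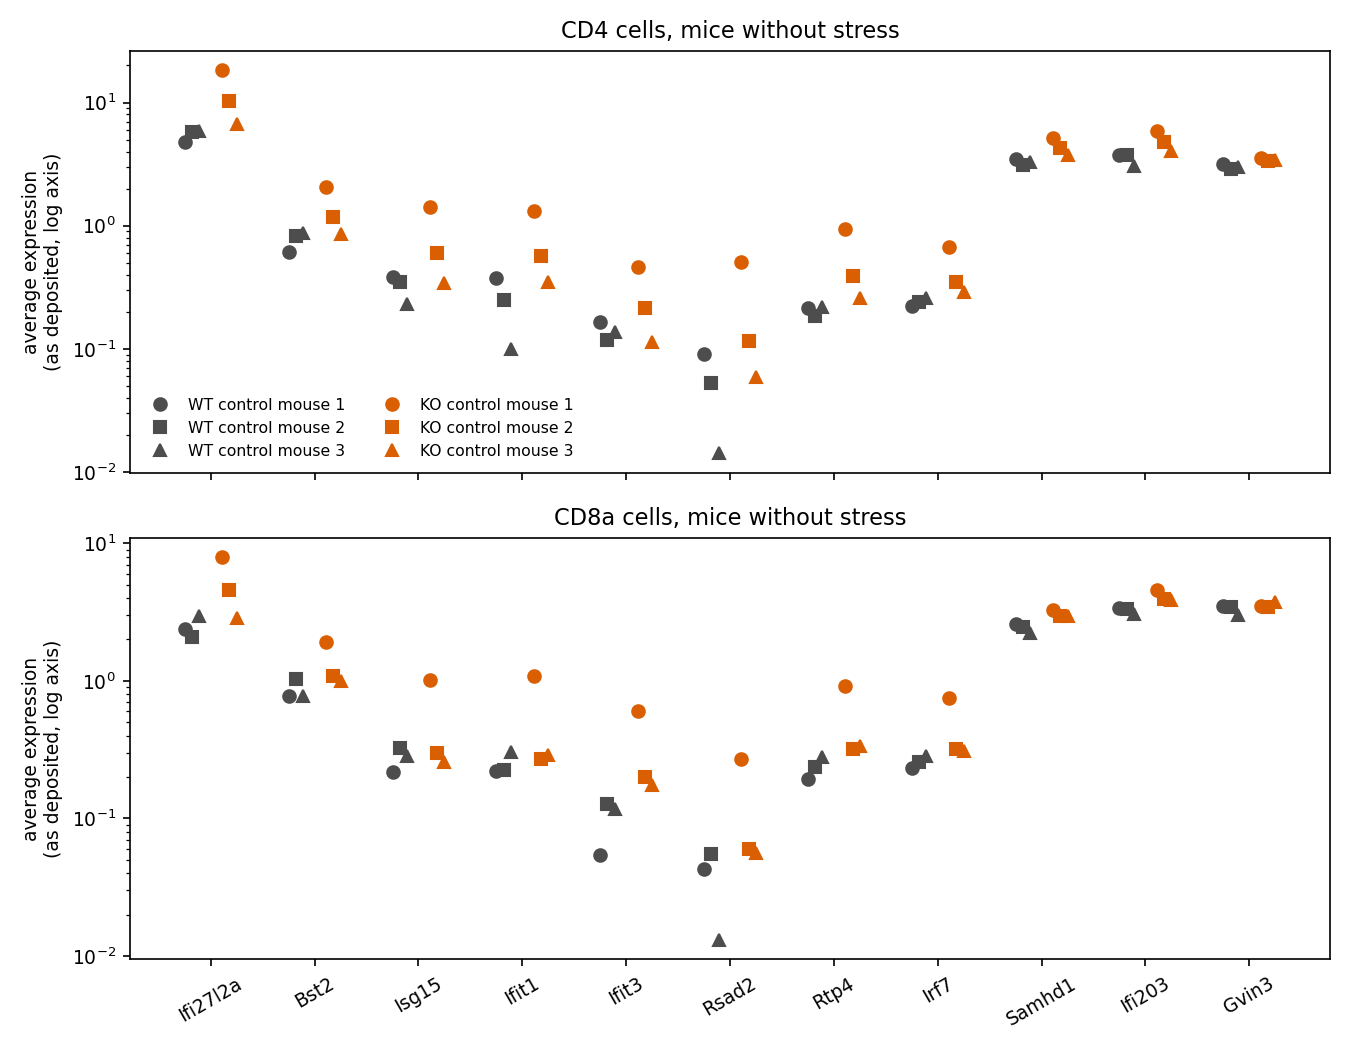
Average expression (as deposited, log axis) of 11 interferon response genes in the 6 mice without stress, in CD4 and CD8a cells; colours are genotypes and shapes are mouse numbers. KO control mouse 1 (orange circles) is the highest for each gene from Ifi27l2a to Ifi203 in both cell types. Gvin3 runs from 2.87 to 3.56 in CD4 cells, where this mouse is also the highest, and from 3.00 to 3.74 in CD8a cells.

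The excess in KO control mouse 1 was uneven over the genes. In CD4 cells its level relative to the mean of KO control mice 2 and 3 had a median of 1.58 over the 39 genes, against 1.06 over all listed genes, and in CD8a cells 1.34 over the 30 genes against 1.04. Rsad2 had the highest ratio in both, 5.72 in CD4 and 4.63 in CD8a cells. Ifit1 had 2.88 and 3.87, and Isg15 2.99 and 3.65. Gvin-ps6 was at 1.01 and 1.04. Genes with the promoter core shown for Isg15, Ifit1 and Rsad2 had a median ratio of 1.70 in CD4 cells (16 genes) and 1.49 in CD8a cells (13 genes). Genes with a window and no core had 1.36 (11 genes) and 1.17 (6 genes). These are descriptions of 1 mouse over genes, with no test. Many of the members were listed for KO against WT without stress on these same mice. The medians over all listed genes are therefore not a like background.

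Markers of other cell types differed between the control groups too. In CD4 cells, the erythroid list (4 of 5 genes) summed to 0.0891 to 0.141 in WT control mice and to 5.52, 4.06 and 0.627 in KO control mice 1, 2 and 3. The neutrophil list (4 of 8) summed to 0.0118 to 0.0304 in WT control mice and to 0.280, 0.192 and 0.0796 in the 3 KO control mice. The list of monocytes, macrophages and dendritic cells (6 of 8) summed to 1.91 to 2.02 and to 3.24, 2.98 and 2.44. In CD8a cells the erythroid sums were 0.0342 to 0.850 in WT control mice and 2.77, 2.39 and 0.351 in the 3 KO control mice. KO control mouse 1 thus had the highest interferon sum and also the highest erythroid, neutrophil and monocyte sums of its group in both cell types. The B cell and class II list (5 of 10 in CD4 cells) was at 3.21 to 8.34 in WT control, 7.01 to 10.3 in KO control and 3.28 to 3.93 in KO stress mice. No listed marker was at 0 in every mouse. The part of other cells in the interferon results was not tested.

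Under stress, few interferon response genes were listed for KO against WT mice. In CD4 cells 3 were listed and 1 was higher, Ifi27l2a, against 14.9% of all 87 listed genes, and 0 were lower, against 18.4% (either direction, 33.3%). It was at 10.6, 8.92 and 7.76 in WT stress and 13.97, 10.9 and 12.5 in KO stress mice (0.45 ± 0.13, adjusted p = 0.0411, limma), and the call was lost on leaving out any of the 6 mice but WT stress mouse 3, and with a pseudocount of 1, centring, rescaling, no trend or the fit of all 4 groups. Parp9, at 0.276, 0.332 and 0.308 in WT and 0.503, 0.447 and 0.384 in KO stress mice, did not pass (0.42 ± 0.16, adjusted p = 0.0619), nor did Ifit3, at 0.191, 0.0955 and 0.0976 in WT and 0.413, 0.174 and 0.21 in KO stress mice (0.65 ± 0.29, adjusted p = 0.0826). In CD8a cells Ifi27l2a alone was listed and did not pass, with a log2 difference of 0.29 ± 0.17, adjusted p = 0.149, where 27.3% of the 99 listed genes were higher and 34.3% lower (either direction, 61.6%).

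Levels differed between the 2 cell types for 14 of the 26 genes listed for both. Compared within each mouse, 5 were higher in CD8a than in CD4 cells, against 17.3% of all 2166 shared genes, and 9 were lower, against 35.5%. In either direction 53.8% of the members passed, against 52.8% of all shared genes, so the set was close to its background. Ifi27l2a had the largest gap, with a CD8a minus CD4 log2 difference of -1.17 ± 0.05, adjusted p = 5.33e-09 (limma). Its 12 values ran from 4.81 to 18.4 in CD4 and from 2.07 to 7.97 in CD8a cells. Slfn2, which keeps T cells quiescent, was lower in CD8a cells, at -0.60 ± 0.03 on that scale, as were Samhd1 (-0.51 ± 0.03) and Zbp1, a sensor of left-handed nucleic acids (-0.44 ± 0.05). Isg15 (-0.28 ± 0.08), Parp14, Shisa5 and Ifi203 were also lower. Oas3 (0.35 ± 0.09), Ifi213 (0.31 ± 0.05), Ifi27, Ifi47 and Gvin3 were higher in CD8a cells. The difference in stress effect between the cell types passed for none of the 26 genes in WT or in KO mice by limma (0% and 0% of all shared genes, and 0 of the 26 at an unadjusted p under 0.05).

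Levels within the set spanned several orders of magnitude. Shisa5 averaged 11.1 ± 0.229 in CD4 and 10.1 ± 0.264 in CD8a cells of WT control mice (SD, n = 3), and Gvin-ps7 8.28 ± 0.219 and 8.74 ± 0.262. Reads were taken at transcript ends, so these levels are not corrected for length and are set side by side only as deposited. At the other end, Mx1 was listed at 0.0187, 0.0201 and 0 in CD4 cells of WT control mice and at 0.16, 0.0464 and 0.0665 in those of KO control mice. Ifitm10, a member of the IFITM family by name, was at 0.149 to 0.372 in CD8a cells and did not pass in KO mice after stress (0.29 ± 0.19, adjusted p = 0.266).

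Other genes of the pathway, from a list of 66 receptors, kinases, sensors and further induced genes, were counted in the same fits. In CD4 cells of WT mice, 21 were listed. Of these, 12 were higher after stress, against 31% of all listed genes, and 2 lower, against 28.9%. The rises included the immunoproteasome subunits Psmb8 (0.44 ± 0.08, adjusted p = 6.60e-04), Psmb9 and Psmb10, the class I genes H2-D1 and H2-K1, the surface protein Ly6a (0.65 ± 0.11) and the feedback inhibitors Socs1 (0.45 ± 0.18) and Socs3 (0.49 ± 0.16). The falls were Sp100, a nuclear body protein (-0.54 ± 0.07), and Ifnar1, a chain of the type I receptor (-0.78 ± 0.12). In KO CD4 cells, 18 were listed. Of these, 3 were higher (Psmb8, Psmb9 and Psmb10), against 19.5% of all listed genes. Another 3 were lower (Sp100, Trim12a and the kinase Jak1, -0.31 ± 0.08), against 20%. Both counts were close to these shares.

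In CD8a cells of WT mice, 20 of the list were tested. Of these, 8 were higher (Psmb8, Psmb9, Psmb10, H2-D1, Ly6a, Plac8, Phf11b and Ms4a4c), against 26.7% of all listed genes. Another 5 were lower (B2m, Sp100, Sp110, Ifnar1 and Trim12a), against 41.5%. Ifnar1 changed by -0.71 ± 0.14 there, and Ly6a by 0.97 ± 0.19. In KO CD8a cells, 19 were tested. Of these, 2 were higher (Psmb8 and Psmb10), against 17.9% of all listed genes. Another 6 were lower (Sp100, B2m, Jak1, Mndal, Ddx60 and Trim12a), against 22.1%. For KO against WT mice without stress, 1 of 14 was higher in CD4 cells, Ly6e (0.29 ± 0.07, adjusted p = 0.0475), and 0 of 8 in CD8a cells passed. Of all genes listed for that comparison, 15.1% were higher in CD4 cells and 8.25% passed in either direction in CD8a cells. Under stress, 0 of the list were tested in CD4 cells and 0 of 1 passed in CD8a cells.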

How the data were processed

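Splenocytes of 12 mice, 3 in each of 4 groups, were measured by droplet single-cell RNA sequencing of transcript 3' ends. Per the submitters' processing notes, Cell Ranger 2.1.1 and mm10 were used. The authors deposited 8 tables, 4 comparisons for each of CD4 and CD8a cells, whose values are a linear signal: the average expression of a gene over the cells of 1 type in 1 mouse. The sources used here do not say how values were normalized, by which rule genes were listed, how cells were called, whether doublets were removed, or how many cells and reads each mouse gave, so depth is unknown and no counting interval is given. Listed genes summed to between 7367 and 8270 per mouse.

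Values were compared as log2(value + 0.1), which understates changes of low genes, using limma (version 3.58.1, R 4.3.3) with moderated variances that follow a mean-variance trend, 3 mice against 3. Benjamini-Hochberg adjustment ran over all genes of a table, with a two-sided threshold of 0.05. The interaction used all 4 groups over every listed gene, and cell types were compared within mice. The fits were tested on simulated data. Mice numbered alike in the titles deviated together in CD4 cells without stress (correlations of 0.26, 0.23 and 0.33 across genes, each over 0.1), so the blocked value is given there. The titles give no pairing or batch across groups, so this block was chosen from the data themselves. The alternatives were 2 other pseudocounts, a low-value filter, centring, rescaling, no trend, one fit of all groups, the block and leaving out each mouse. Values in every mouse are given for members called without overlap (up to 6 in each direction at or above the median level of listed genes and 3 below it), for the 3 with the smallest p where fewer than 3 passed, for the 3 members with the highest mean level, and for Irf7, Irf9 and Isg15. One member is counted but not reported here by name. Ifit1, Rsad2 and the genes shown for the left-out mouse were added after their values were seen. The members, gene lists and markers were chosen with earlier results of these data known. Promoters are RefSeq windows on GRCm38.p6; 40 of the 43 members matched GENCODE M21.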

Additional observations from a re-analysis of the deposited data

How the results depend on the processing

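No direction that passed the test turned under any alternative. A fit of all 4 groups covered more members and gave 11 lower after stress in WT CD4 cells, 16 in KO CD4 cells, 11 in WT CD8a cells and 17 in KO CD8a cells. For KO against WT in CD4 cells without stress, 0 members were higher with a pseudocount of 1, without the lowest 25% of genes, with centring and with rescaling, 1 without the trend and 16 with the replicate block. Centring moved the median of all genes there from 0.20 to -0.06, and from 0.09 to 0.29 for stress in WT CD8a cells, where 7 members were then higher. In CD4 cells under stress, 0 were higher with a pseudocount of 1, centring, rescaling or the 4-group fit. In CD8a cells without stress, 2 were higher with a pseudocount of 0.01 and 3 without the trend. Rescaling put the mean CD4 member sum of WT control mice at 61.9. Leaving out 1 mouse gave 3 to 7 higher for stress in WT CD4 cells, 0 to 3 higher and 8 to 9 lower in KO CD4 cells, 2 to 4 higher in WT CD8a cells, and 0 to 1 higher and 9 to 10 lower in KO CD8a cells. It gave 0 to 24 and 0 to 2 higher in KO against WT without stress in CD4 and CD8a cells, 0 to 1 under stress in CD4 cells, and 3 to 5 higher and 9 to 11 lower in CD8a against CD4 cells. In no other comparison were all 3 correlations of same-numbered mice over 0.1 (single pairs ran from -0.54 to 0.65), and there the block ended the call of Ifi27 in WT CD8a cells. The shares of all listed genes called under these alternatives, the 4-group fit among them, are not given here. The member counts are therefore not set against a background. The cause of these changes was not tested.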
